A study of Mus musculus with 6 samples.

Results

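The imprinted growth and quiescence genes examined here are Ndn, Cdkn1c, Airn, Igf2r, Grb10, H19, Peg3, Plagl1, Dlk1 and Igf2, a set of 10 genes in which only the copy from 1 parent is normally active. They were chosen by name after differences on these same arrays were known, and every microarray probe set assigned to 1 of these symbols alone was taken. By this rule 9 of the 10 genes, out of 18193 genes with such a probe set, were represented, by 31 probe sets. H19 gave no value, because its only probe set is also assigned to the microRNA gene Mir675, and another probe set, assigned to both Airn and Igf2r, was left out for the same reason. Of the 31 probe sets, 11 reached a mean intensity of 149 over the 6 arrays, the median over all probe sets, and they belong to 5 genes: Ndn, Airn, Igf2r, Cdkn1c and Grb10. The other 20 had means from 5.28 to 138 and are described as dim.

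The arrays measured RNA of LSK cells, the lineage-negative, Sca-1-positive, Kit-positive bone marrow fraction that holds the blood stem cells and early progenitors. All cells came from 3 adult Mx1Cre;Ergkd/+;R26Y mice, numbered 278, 279 and 281, on a mixed 129-B6 background, so both groups share the Cre transgene, the single Ergkd allele of the transcription factor Erg and the R26Y reporter. From each mouse, YFP+ cells, in which Erg is labelled as restored to the wild-type level, and YFP- cells, in which Erg is labelled as reduced by about 40%, were sorted and hybridised separately. That gives 3 restored-labelled and 3 knockdown-labelled arrays in pairs within mice. The Mx1 promoter that drives Cre responds to interferon and is active in many cell types, and sorting by YFP separates cells that recombined from cells of the same marrow that did not. No wild-type mouse or Cre-free control is among the 6 arrays.

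Genomic imprinting rests on DNA methylation set in the egg or the sperm, which leaves a gene active on the maternal or the paternal chromosome only. Imprinted genes include regulators of fetal growth, among them the growth factor Igf2 and the receptor Igf2r that removes it, and brakes on the cell cycle such as Cdkn1c. Many fall silent in most tissues after birth, and Cdkn1c and Ndn are known in blood stem cells as genes linked to quiescence. The arrays read total transcript without regard to parent of origin, so no value here reports on imprinting itself.

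Signals were of similar size on all 6 arrays, with mean intensities of 1031 to 1071 and medians of 135 to 157. The restored-labelled array of mouse 279 had the highest 3' to 5' signal ratio at both control transcripts, with a log2 ratio of 0.68 for Gapdh against 0.43 to 0.50 on the others and of 0.74 for Actb against 0.49 to 0.59. Erg itself did not clearly follow the labels. One Erg probe set read 1859, 1542 and 1686 on the restored-labelled arrays of mice 278, 279 and 281 and 1820, 1331 and 1570 on the knockdown-labelled arrays, a difference of -0.11 ± 0.09 on the log2 scale, and the other differed by 0.02 ± 0.10 (SD, n = 3 mice). The first was lower in all 3 mice, but by less than the labelled 40%. The libraries are therefore called by their labels throughout. The Ergkd allele was not resolved from the normal allele here, and where these probes lie relative to it was not tested. The LSK label matched its markers: of 10 listed stem and progenitor genes, 8 had a probe set and all 8 were above the filter, among them Kit with mean intensities of 4306 and 5002 in the restored-labelled and knockdown-labelled groups.

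Each difference is the knockdown-labelled value less the restored-labelled one of the same mouse, on log2(intensity + 16), given with the mean and SD over 3 mice. The offset of 16 makes differences at low intensity smaller than the ratio of the raw values. Across the 22519 probe sets above the filter the median difference was 0.02, with 90% of them between -0.26 and 0.44. No probe set of any gene differed at an adjusted p under 0.05 in limma (percent called 0), and 1366 of 22519 (6.07%) had an unadjusted p under 0.05. Since the members were chosen with this contrast known, their differences are given as a description and without a test. In bulk RNA of a sorted population, more RNA per cell and more cells of a type that holds it cannot be told apart.

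The promoters of Ndn, Igf2r and Airn are shown because these 3 genes had the largest differences among members above the filter and because Igf2r and Airn share a locus. The sequences are RefSeq's, build GRCm38.p6, from 250 bases before to 50 after the annotated start, read 5' to 3' on the gene's own strand. Capitals mark GGAAG, the core that ETS factors such as Erg recognise, or its reverse complement CTTCC.
Ndn: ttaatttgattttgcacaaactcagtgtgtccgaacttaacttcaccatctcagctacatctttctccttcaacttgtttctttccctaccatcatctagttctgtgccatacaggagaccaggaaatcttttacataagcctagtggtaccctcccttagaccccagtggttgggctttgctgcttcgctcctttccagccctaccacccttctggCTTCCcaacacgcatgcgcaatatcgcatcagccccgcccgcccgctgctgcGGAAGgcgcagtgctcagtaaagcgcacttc
Igf2r: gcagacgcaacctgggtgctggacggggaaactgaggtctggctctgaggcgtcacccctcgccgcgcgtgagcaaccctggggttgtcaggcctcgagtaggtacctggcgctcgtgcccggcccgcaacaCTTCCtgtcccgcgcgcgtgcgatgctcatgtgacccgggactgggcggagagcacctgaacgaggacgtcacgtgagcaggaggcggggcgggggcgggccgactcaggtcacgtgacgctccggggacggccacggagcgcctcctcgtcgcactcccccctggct
Airn: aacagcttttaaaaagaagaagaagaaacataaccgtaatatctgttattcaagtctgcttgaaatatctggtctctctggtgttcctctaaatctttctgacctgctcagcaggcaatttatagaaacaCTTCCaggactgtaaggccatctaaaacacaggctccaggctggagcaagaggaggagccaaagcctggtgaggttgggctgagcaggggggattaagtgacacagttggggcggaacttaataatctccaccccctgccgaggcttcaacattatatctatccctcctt
The Ndn window is chr7:62348027-62348326 on the plus strand, the Igf2r window chr17:12769657-12769956 on the minus strand and the Airn window chr17:12741061-12741360 on the plus strand. The Airn window lies inside the Igf2r gene and runs against it, as the antisense transcript it starts does.

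The ETS core is frequent in promoters at large. GGAAG on either strand was found in 71.4% of 32851 windows of the same length, and the longer GGAAGT, which contains it, in 23.8%. Among the 12 windows listed for 8 of the 10 members, 9 held GGAAG and 2 held GGAAGT. Ndn has 2 copies of the core and no GGAAGT, while Igf2r and Airn have 1 core each, extended to GGAAGT. The windows differ more in CpG content, the dinucleotide that carries DNA methylation: 34 CpG in Igf2r and 3 in Airn, against a median of 7 over all windows, with 11 in Ndn and 45 in the window of the first Grb10 start. Only 1.93% of all windows hold 45 or more, and 76.7% hold 3 or more. A match in such a window is a description of its letters.

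Ndn encodes necdin, a protein of the MAGE family that restrains cell-cycle entry and is made from the paternal chromosome. Its brightest probe set read 685, 709 and 482 on the restored-labelled arrays of mice 278, 279 and 281 and 1645, 1430 and 947 on the knockdown-labelled arrays. Every knockdown-labelled value was above every restored-labelled value, and mouse 281 was the lowest of the 3 mice in both groups. The differences within the mice were 1.24, 1.0 and 0.95, a mean of 1.06 ± 0.16 (SD, n = 3), or 2.09-fold. Of all probe sets above the filter, 0.249% had a difference as high.

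The other 4 Ndn probe sets above the filter gave means of 1.13 ± 0.30, 1.20 ± 0.35, 1.22 ± 0.25 and 1.23 ± 0.39 (SD, n = 3). Over the 5 probe sets the differences ran from 1.24 to 1.53 in mouse 278, from 1.0 to 1.38 in mouse 279 and from 0.79 to 1.03 in mouse 281. These 5 gave the same direction in every mouse, but they read the same RNA and are not separate evidence. Another 3 Ndn probe sets were dim, with intensities of 5.78 to 21.9, with opposite signs among the mice and means of -0.14 ± 0.24, 0.29 ± 0.44 and 0.21 ± 0.34.

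Cdkn1c encodes p57, an inhibitor of cyclin-dependent kinases made from the maternal chromosome. Its single probe set read 122, 113 and 164 on the restored-labelled arrays of mice 278, 279 and 281 and 176, 319 and 232 on the knockdown-labelled arrays. The groups did not overlap, although the gap was narrow, from 164 to 176. The differences were 0.47, 1.37 and 0.46, a mean of 0.77 ± 0.52 (SD, n = 3), or 1.70-fold, and 0.879% of all probe sets had one as high. Mouse 279 supplied much of the mean, which was 0.47 without it. The restored-labelled mean of 133 was itself below the filter, so this probe set passed only through the arrays where it was high.

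**Figure D1:**
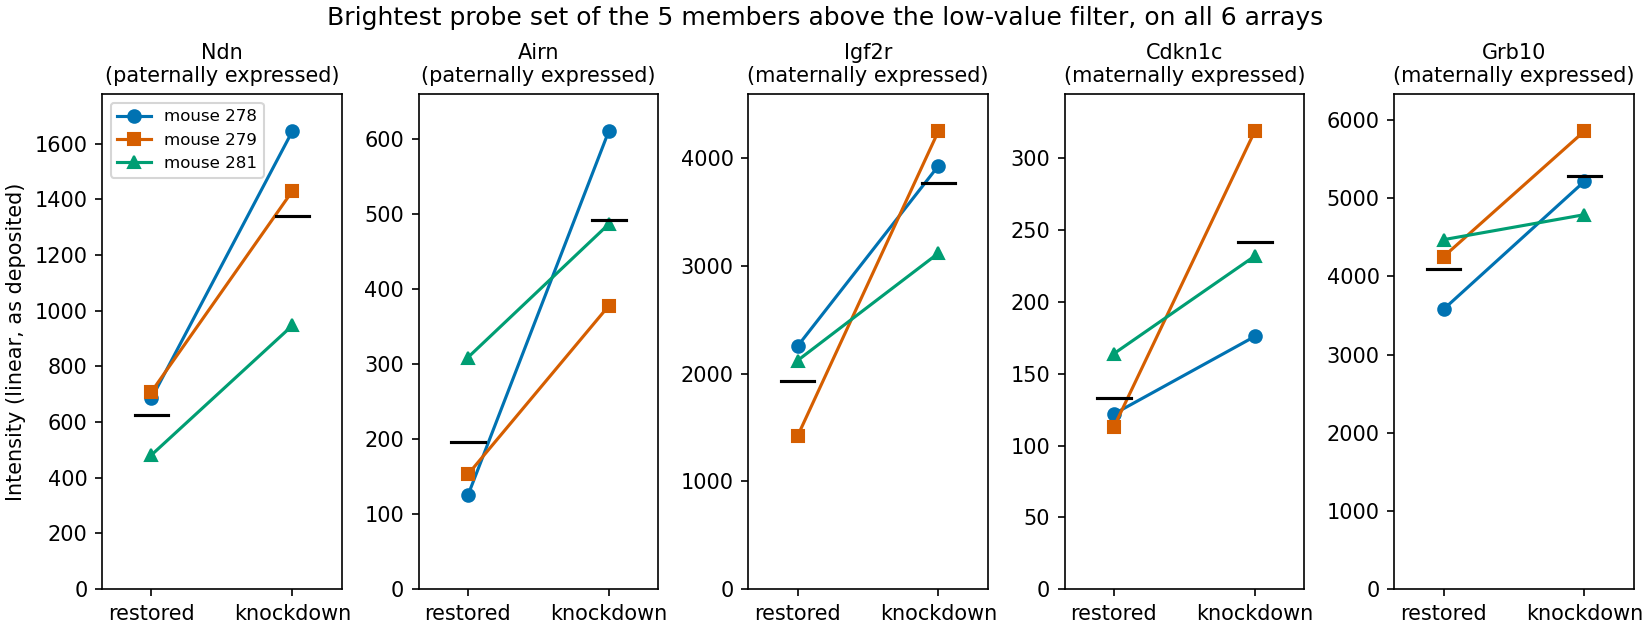
Intensity (linear axis from 0) of the brightest probe set of each member above the filter, for the restored-labelled and knockdown-labelled cells of each mouse, joined by a line within the mouse, with a black bar at each group's mean. In Ndn, Igf2r, Airn, Cdkn1c and Grb10 all 3 lines run upward and the knockdown-labelled points lie above all restored-labelled points, closest in Cdkn1c (176 against 164) and Grb10 (4791 against 4471).

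Igf2r encodes the cation-independent mannose 6-phosphate receptor, which carries lysosomal enzymes and clears Igf2 from outside the cell, and is made from the maternal chromosome. Its bright probe set read 2255, 1420 and 2122 on the restored-labelled arrays of mice 278, 279 and 281 and 3930, 4252 and 3119 on the knockdown-labelled arrays. The lowest knockdown-labelled array was well above the highest restored-labelled one. The group means were 1932 ± 448 and 3767 ± 583 (SD, n = 3), and the differences of 0.80, 1.57 and 0.55 had a mean of 0.97 ± 0.53, or 1.96-fold, which 0.36% of all probe sets reached. Mouse 279, whose restored-labelled array had the highest 3' to 5' ratio, gave the largest difference, and the mean without it was 0.67. Whether the RNA of that array bears on this value was not tested.

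The second Igf2r probe set read 139, 130 and 96.1 on the restored-labelled arrays and 259, 332 and 211 on the knockdown-labelled arrays. Its differences of 0.83, 1.25 and 1.02 averaged 1.03 ± 0.21 (SD, n = 3), close to those of the bright probe set, with a restored-labelled mean of 122 below the filter. Both probe sets were therefore higher in the knockdown-labelled cells of all 3 mice.

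Airn is a noncoding RNA, transcribed from the paternal chromosome in the opposite direction to Igf2r and needed in most tissues to keep the paternal Igf2r copy silent. Its brightest probe set read 125, 153 and 309 on the restored-labelled arrays of mice 278, 279 and 281 and 611, 378 and 487 on the knockdown-labelled arrays. The groups did not overlap, yet the mice were far apart: the differences were 2.15, 1.22 and 0.63, a mean of 1.34 ± 0.77 (SD, n = 3), or 2.52-fold. This was the largest mean difference among the 11 probe sets above the filter, and it was 0.93 without mouse 278.

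A second Airn probe set read 74.3, 124 and 201 on the restored-labelled arrays and 260, 262 and 232 on the knockdown-labelled arrays. Its differences had the same order over the mice, 1.61, 0.99 and 0.19, with a mean of 0.93 ± 0.71, and its restored-labelled mean of 133 was below the filter. The knockdown-labelled values of this probe set were alike in the 3 mice, and the spread came from the restored-labelled arrays. The 3 dim Airn probe sets differed by 0.16 ± 0.37, 0.23 ± 0.29 and 0.35 ± 0.19.

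Grb10 encodes an adaptor that dampens signalling from the insulin and insulin-like growth factor receptors, and in most tissues its maternal copy is the active one. Its bright probe set read 3580, 4253 and 4471 on the restored-labelled arrays of mice 278, 279 and 281 and 5217, 5860 and 4791 on the knockdown-labelled arrays. The differences of 0.54, 0.46 and 0.10 averaged 0.37 ± 0.24 (SD, n = 3), or 1.29-fold, and 7.46% of all probe sets had one as high. Grb10 was thus the member above the filter with the smallest difference. The 2 dim Grb10 probe sets, between 15.4 and 83.9, differed by -0.16 ± 0.46 and -0.24 ± 0.42.

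All 11 probe sets above the filter were higher in the knockdown-labelled cells of the 3 mice, against 20.8% of all probe sets, and in all 11 the groups did not overlap, against 9.63%. A difference of at least 1.5-fold in every mouse was reached by 7 of the 11 and by 0.32% of all probe sets. These counts follow from how the genes were chosen and from the filter, and nothing is read from them. None of the 11 was lower in all mice or lower without overlap, against 10.4% and 4.36% of all probe sets. Just inside the filter, the Cdkn1c probe set had a mean intensity of 188 and differed by 0.77; just outside it, the highest Plagl1 probe set had a mean of 138 and differed by 1.58 ± 3.59, and the brightest dim Airn probe set had one of 120 and differed by 0.16.

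**Figure D2:**
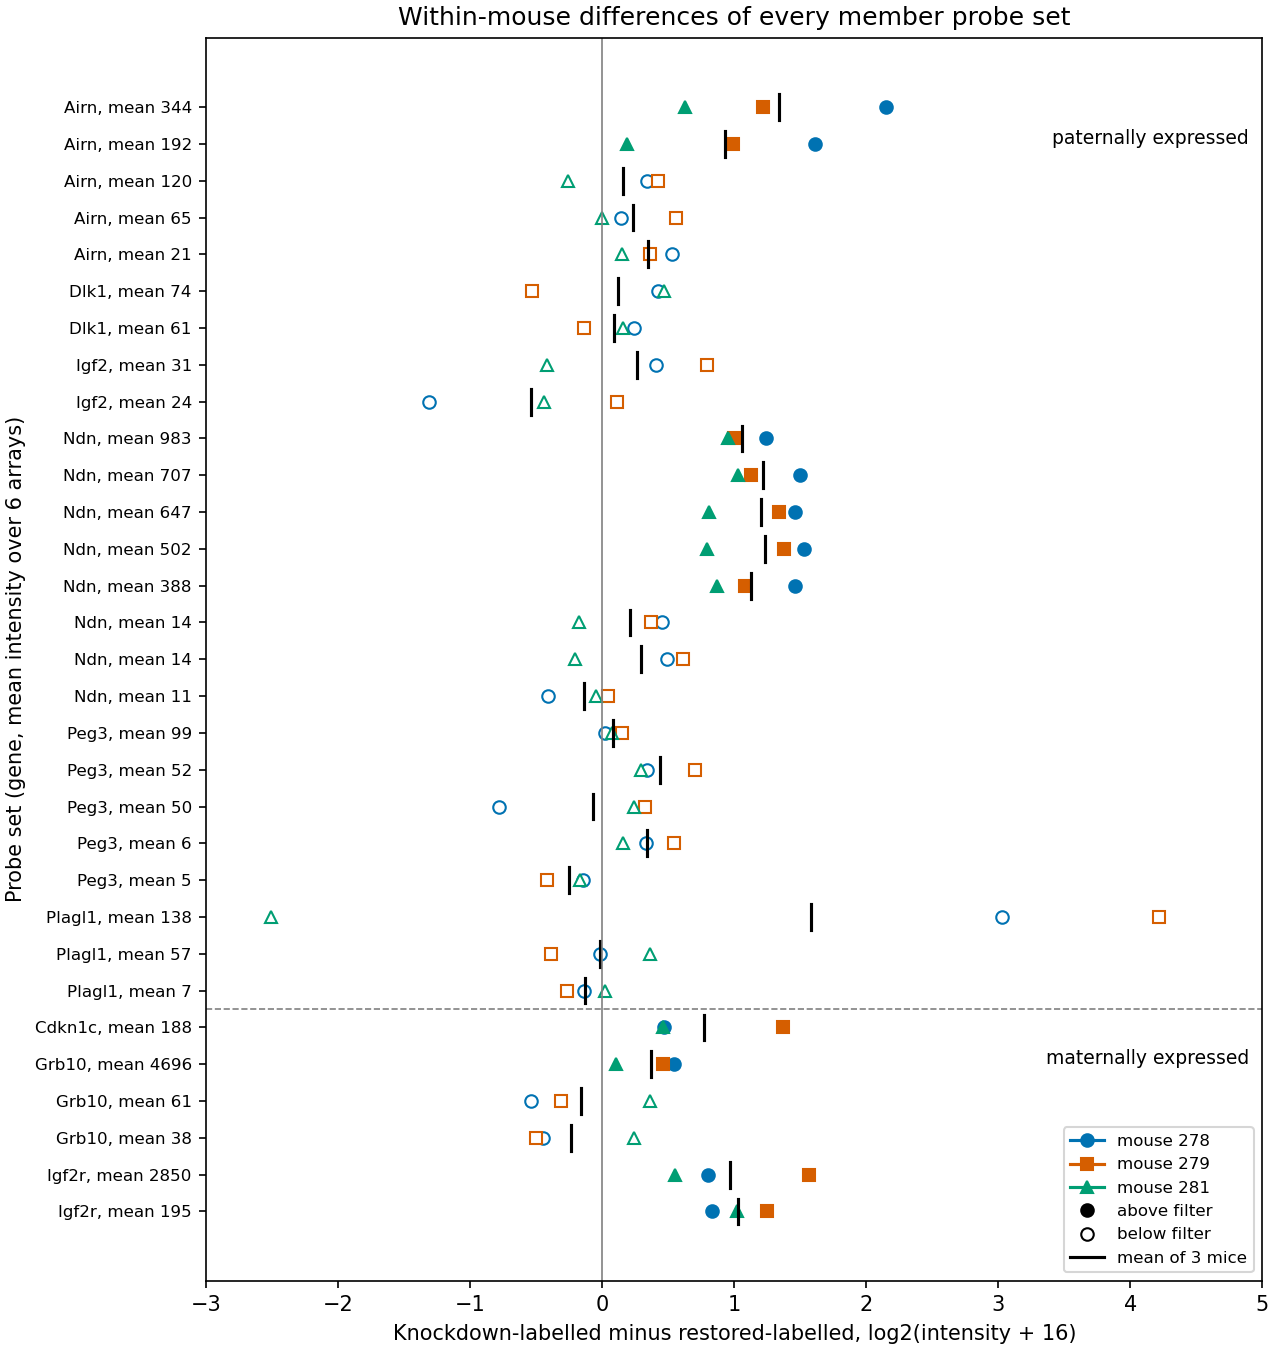
Difference in each mouse, knockdown-labelled minus restored-labelled on log2(intensity + 16), for the 31 member probe sets, named by gene and mean intensity, paternally expressed above the dashed line and maternally expressed below it, filled above the filter and open below it, with a bar at the mean of 3 mice. The 5 Ndn probe sets above the filter lie between 0.79 and 1.53 in all mice, while dim probe sets, 3 of Ndn among them, scatter on both sides of 0, widest in Plagl1 from -2.51 to 4.22.

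The growth factors themselves were at the bottom of the intensity range. Igf2, the ligand that Igf2r removes, had 2 probe sets with intensities of 3.19 to 44.5, which differed by 0.26 ± 0.62 and -0.54 ± 0.72 and overlapped between groups. Dlk1, a membrane protein of the Delta family that inhibits differentiation, read 45.9 to 91.4 at its 2 probe sets and differed by 0.12 ± 0.56 and 0.09 ± 0.20. Its maternally expressed partner transcripts were dim too: Meg3 differed by 0.21 ± 0.11 and Mirg by -0.09 ± 0.09. Rian, from the same cluster and singled out here after its values were seen, read 27.3, 24.2 and 29.3 on the restored-labelled arrays and 100, 164 and 33.5 on the knockdown-labelled arrays, a difference of 1.24 ± 1.03.

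Peg3 and Plagl1 encode zinc-finger proteins, and Plagl1 is known as a regulator of other imprinted genes. The brightest Peg3 probe set read 95.6, 102 and 88.4 on the restored-labelled arrays and 97.5, 115 and 93.9 on the knockdown-labelled arrays, a difference of 0.08 ± 0.06. Another Peg3 probe set read 38.9, 45.2 and 40.1 against 53.6, 83.2 and 52.5, without overlap, with a difference of 0.44 ± 0.22, and the remaining 3 differed by -0.07 ± 0.61, 0.34 ± 0.19 and -0.25 ± 0.15. Peg3 therefore had no single direction over its probe sets. One Plagl1 probe set swung from 16.5, 6.92 and 134 on the restored-labelled arrays to 250, 412 and 10.4 on the knockdown-labelled arrays, with differences of 3.03, 4.22 and -2.51, whereas the other 2 differed by -0.02 ± 0.38 and -0.13 ± 0.15. Over the 20 dim probe sets, 4 were higher and 1 was lower in all mice, against 16.4% and 10.1% of all 22518 dim probe sets.

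The paternally expressed members above the filter, Ndn and Airn, were set against the maternally expressed Igf2r, Cdkn1c and Grb10, each by its brightest probe set. The paternal median was 1.70, 1.11 and 0.79 in mice 278, 279 and 281, and the maternal median was 0.54, 1.37 and 0.46. The paternal genes were ahead by 1.16 in mouse 278 and by 0.33 in mouse 281, and in mouse 279 the sign was opposite, at -0.26. The mean of 0.41 ± 0.71 (SD, n = 3) is smaller than the spread between mice. It was 0.03 without mouse 278 and -0.22 when every named probe set was used, dim ones included. The maternal median of mouse 279 is the value of Cdkn1c, which passed the filter only through the arrays where it was high. Without Cdkn1c, an alternative added after the values were seen, the paternal genes were ahead in each mouse, by 1.03, 0.09 and 0.46, a mean of 0.53 ± 0.47 (SD, n = 3). With 2 paternal and 3 maternal genes the comparison describes these genes alone. In mouse 279 Igf2r (1.57) and Cdkn1c (1.37) were above the paternal median and Grb10 (0.46) was below it. Leaving out a gene other than Cdkn1c was not tried.

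At their shared locus Airn and Igf2r were both higher in the knockdown-labelled cells of each mouse. The Airn difference minus the Igf2r difference was 1.36 in mouse 278, -0.35 in mouse 279 and 0.08 in mouse 281, a mean of 0.36 ± 0.89 (SD, n = 3). The Airn difference was the larger one in mouse 278 and the Igf2r difference in mouse 279, so the order of the 2 transcripts was not fixed, and without mouse 278 the mean was -0.14. The arrays do not show whether the antisense and the sense transcript came from the same cells or from 1 chromosome.

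The mouse an array came from was not used to choose the genes, so differences between mice could be tested in limma by an F test of the mouse term, with Benjamini-Hochberg adjustment over all 22519 probe sets. No probe set passed an adjusted p under 0.05 (percent called 0), and 1252 (5.56%) had an unadjusted p under 0.05. The brightest Ndn probe set was highest in mouse 278, at a mean of 10.08 on the log2 scale, and lowest in mouse 281, at 9.44, a range of 0.64 with an unadjusted p of 0.0139 and an adjusted p of 0.859. The other 4 Ndn probe sets had ranges of 0.68 to 0.89 and adjusted p from 0.859 to 0.919. The lower Ndn level of mouse 281 therefore did not pass the test. Airn had a range of 0.65 and Cdkn1c of 0.37, with adjusted p of 0.973 and 0.987. Grb10, with a range of 0.21, had an adjusted p of 0.994, and the bright Igf2r probe set, with 0.27, one of 1.

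Other imprinted genes showed no common direction. Of 51 other imprinted genes listed, 43 had a probe set and 23 were above the filter, of which 10 were higher and 13 lower in the knockdown-labelled cells, with a median difference of -0.01, against a median of 0.00 and 50.1% higher over the 10825 genes above the filter. Higher in all 3 mice were 5 of the 23, and lower in all mice were 4, while 19.9% of all genes were higher and 12.4% lower in all mice. With the arrays centred on their medians the split was 7 higher and 16 lower, and 25.2% of all genes were higher. Phlda2, a maternally expressed restraint on placental growth, differed by 0.44 ± 0.38, and Kcnq1ot1, the paternal antisense RNA of the Cdkn1c cluster, by 0.35 ± 0.28 (SD, n = 3), with its 3 probe sets between -0.15 and 0.38. Ppp1r9a, Gab1 and Slc22a18 differed by 0.25 ± 0.12, 0.22 ± 0.45 and 0.21 ± 0.10, and Copg2 by -0.20 ± 0.25. The 5 Ppp1r9a probe sets above the filter ran from -0.10 to 0.57. Sgce and Inpp5f differed by 0.16 ± 0.37 and 0.16 ± 0.13. None of these genes passed the test over all probe sets.

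The factors that keep imprint methylation through cell division had a median near 0 by their brightest probe sets. Of 10 listed, 9 were above the filter, 7 higher and 2 lower, with a median of 0.04, and all 9 were lower after centring. Zfp57, a zinc-finger protein that binds methylated imprint control regions, stood apart with differences of -0.20, -1.41 and 0.39, a mean of -0.41 ± 0.92 (SD, n = 3) that changes sign between mice. Smchd1, a chromatin protein needed at some imprinted clusters, differed by 0.09 ± 0.09, and Uhrf1, which brings the methyltransferase Dnmt1 to new DNA, by 0.07 ± 0.07. Cbx5, a heterochromatin protein, differed by 0.07 ± 0.06, and after centring these 3 genes were at -0.02, -0.03 and -0.04. Over all their probe sets above the filter, Smchd1 ran from -0.15 to 0.09, Uhrf1 from 0.07 to 0.22 and Cbx5 from 0.05 to 0.47.

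The insulin-like growth factor axis, to which Igf2r and Grb10 belong, had 6 of 16 genes with a probe set above the filter, all 6 higher, with a median of 0.12; after centring 4 were higher and 2 lower. Igf1r, the receptor that transmits the Igf1 and Igf2 signal, read 1917, 1106 and 2252 on the restored-labelled arrays of mice 278, 279 and 281 and 2224, 2286 and 2433 on the knockdown-labelled arrays. Its difference of 0.45 ± 0.51 (SD, n = 3) was largest in mouse 279, at 1.04, where the restored-labelled array was low, and its probe sets ranged from -0.09 to 0.53. Igfbp7, a binding protein, differed by 0.30 ± 0.43, Insr, the insulin receptor, by 0.12 ± 0.15 and Igf1 by 0.11 ± 0.30. Cdkn1c belongs to the CIP/KIP inhibitors, whose other members and cyclin partners were all above the filter, 9 of 11 higher with a median of 0.08, and 4 higher and 7 lower after centring. Its relatives Cdkn1a and Cdkn1b, encoding p21 and p27, differed by 0.26 ± 0.37 and 0.17 ± 0.16, and Cdk2, a kinase they inhibit, and its partner cyclin Ccne1 by 0.15 ± 0.12 and 0.14 ± 0.17. The Cdkn1a probe sets above the filter ran from -0.10 to 0.26.

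**Figure D3:**
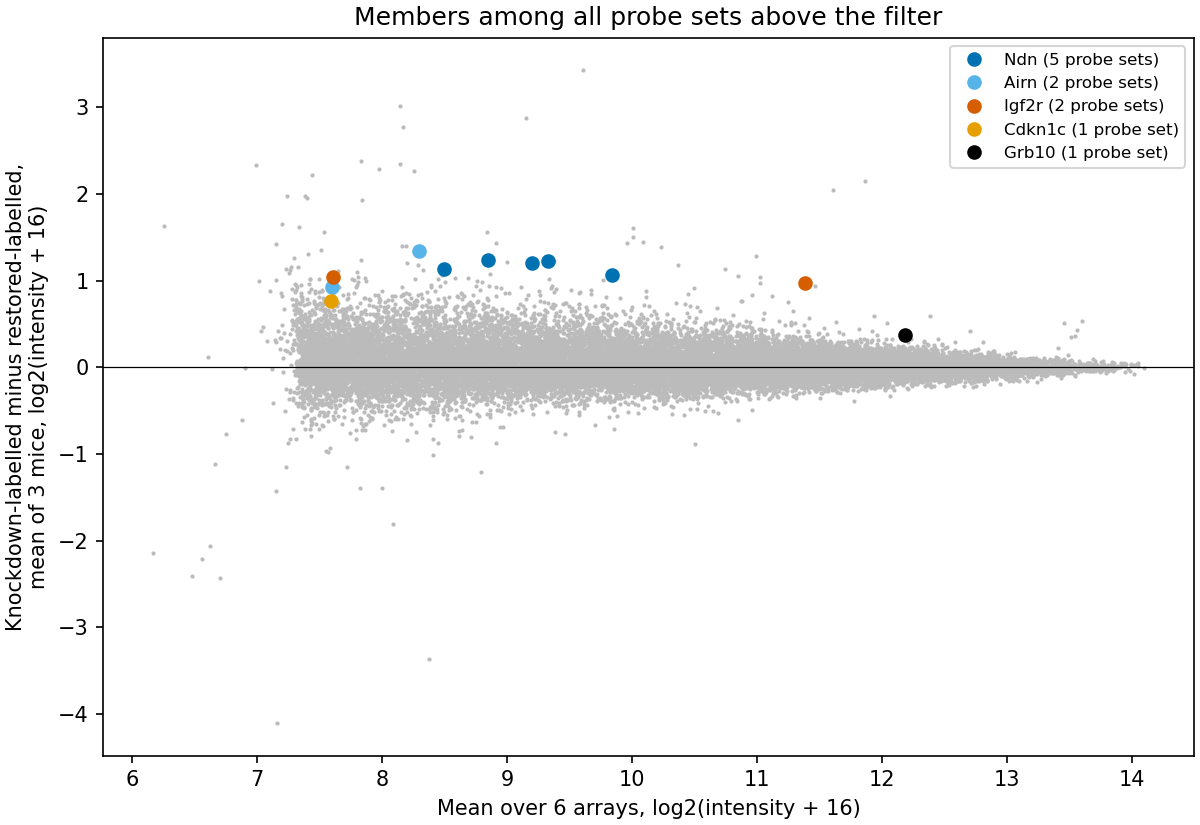
Mean difference, knockdown-labelled minus restored-labelled on log2(intensity + 16), against the mean of log2(intensity + 16) over the 6 arrays, for all probe sets above the filter (grey), with the 11 member probe sets coloured by gene. The bulk of probe sets lies between -0.26 and 0.44, and the Ndn, Airn, Igf2r and Cdkn1c points lie from 0.77 to 1.34, with Grb10 at 0.37.

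Genes with the array pattern closest to Ndn were ranked by the root mean square of the log2 deviations over the 6 arrays, each gene centred on its own mean. The nearest 3 were Gpr25, an orphan receptor gene, at a distance of 0.13, Fam241b at 0.16 and Epcam, a cell adhesion protein, at 0.20. Their differences were 0.95 ± 0.44, 1.21 ± 0.13 and 0.95 ± 0.54 (SD, n = 3). Nearest to Cdkn1c were Gas6, a ligand of the TAM receptors, at 0.12, Pou6f1, a transcription factor, at 0.13 and Hif3a, of the hypoxia factor family, at 0.17, with differences of 0.79 ± 0.37, 0.59 ± 0.43 and 0.56 ± 0.26. These distances rest on the same 6 arrays and are a description. The differences follow from the choice by likeness, and nothing is read from them. Gpr25 and Epcam had restored-labelled means of 103 and 101, below the filter, and passed it only through the group where they were high.

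Chromosomal neighbours were read in gene order. Around Ndn, the paternally expressed Magel2 was dim with 0.55 ± 0.56, Mkrn3 was dim with -0.39 ± 0.27, and Peg12, above the filter, differed by -0.05 ± 0.27. Snrpn, a paternally expressed gene of the same imprinted region, was dim too, with 0.51 ± 0.30. It was higher in all 3 mice, as were 16.4% of all dim probe sets. Around Cdkn1c, Kcnq1ot1 at 0.35, Slc22a18 at 0.21 and Phlda2 at 0.44 were also higher in all 3 mice. That held for 19.9% of all genes above the filter. Phlda2 was only at 0.02 in mouse 281, and Slc22a18 at 0.12 in mouse 278. After centring, Kcnq1ot1, Slc22a18 and Phlda2 had means of 0.24, 0.11 and 0.33. Nap1l4 and Cars, at the edge, were at 0.00 and -0.08. Around Igf2r, C030013G03Rik was the only gene besides Igf2r and Airn above the filter among the 9 in order, with 0.09 ± 0.44. Near Grb10, Ikzf1, a transcription factor of lymphoid cells, differed by 0.10 ± 0.01, and LOC102631979, inside Grb10, by 0.50 ± 0.66.

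**Figure D4:**
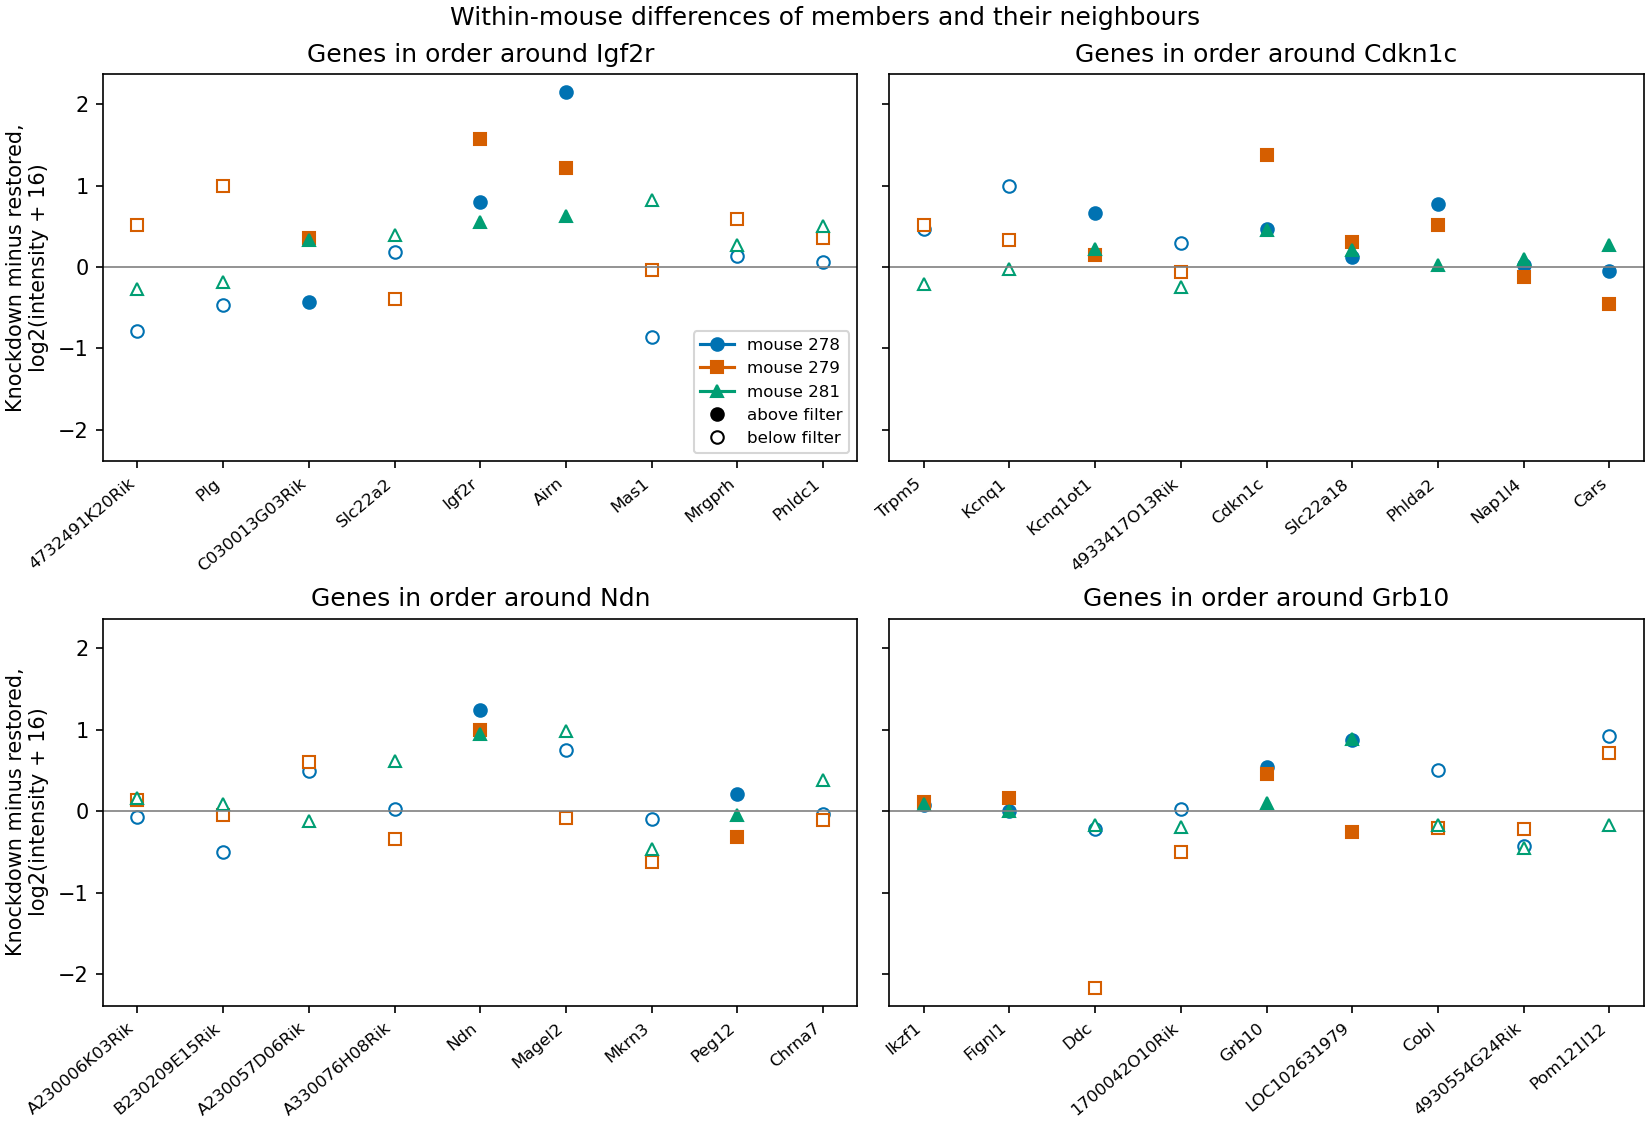
Difference in each mouse, knockdown-labelled minus restored-labelled on log2(intensity + 16), for genes in chromosomal order around Igf2r, Cdkn1c, Ndn and Grb10, with filled symbols above the filter and open symbols below it. Around Ndn the 3 filled symbols of Ndn lie from 0.95 to 1.24 and those of Peg12 on both sides of 0. In the Cdkn1c panel 4 genes are above 0 in every mouse, Phlda2 only at 0.02 in mouse 281.

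Markers of other cell types differed between the groups. The summed intensity of the B cell and plasma cell list, of which 5 of 8 genes with a probe set were above the filter, was 12045, 10610 and 11637 on the restored-labelled arrays of mice 278, 279 and 281 and 25185, 26506 and 15938 on the knockdown-labelled arrays, without overlap. Ighm, the immunoglobulin heavy chain, read 3215, 1168 and 1438 against 10569, 11129 and 4046. The plasma cell genes Sdc1, Mzb1 and Jchain were higher in all 3 mice as well, by 0.94 ± 0.37, 1.44 ± 0.53 and 0.59 ± 0.39. Cd79b, a chain of the B cell receptor, was lower in all 3 mice, with a difference of -0.11 ± 0.06. The B cell markers Cd79a, Ms4a1 and Pax5 were below the filter, and Pax5 was at 0 on the restored-labelled array of mouse 279. Cd79a was higher in all 3 mice, by 0.54 ± 0.07, as were 16.4% of all dim probe sets. Ms4a1 and Pax5 differed by 0.48 ± 1.23 and -0.44 ± 1.38. Among the knockdown-labelled arrays mouse 281 was the lowest for this list and for Ndn, Igf2r and Grb10, but not for Cdkn1c. For Airn, mouse 281 was the lowest at the second probe set, with 232, but not at the brightest. It was also the lowest for the LSK, megakaryocyte, macrophage and endothelial lists. The part of B cells and plasma cells in the member differences was not tested.

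Among stromal markers 3 of 10 were above the filter, and the list summed to 2714, 2935 and 2342 on the restored-labelled arrays and 2870, 4202 and 3739 on the knockdown-labelled arrays. Pdgfrb, a growth factor receptor that made up most of the sum in the restored-labelled group, read 2247, 2150 and 1645 against 2239, 1701 and 2007, a difference of -0.02 ± 0.31. Sparc, a matrix protein, read 39.1, 84 and 102 against 102, 416 and 227. Cxcl12, a chemokine of marrow stroma, read 35.4, 151 and 172 against 85.7, 1078 and 779, and Lepr, dim, read 19.6, 44.6 and 70.2 against 22.8, 327 and 159. Sparc and Cxcl12 had restored-labelled means of 75.1 and 119, below the filter, and passed it only through the group where they were high. Mouse 278 had the largest Ndn, Airn and Grb10 differences and the lowest Cxcl12 and Lepr in both groups. Mouse 279 had the largest Igf2r and Cdkn1c differences, 1.57 and 1.37, and the largest Cxcl12 and Lepr differences, 2.71 and 2.50. That was not particular to stromal genes. Ighm, the neutrophil gene Ngp and the T cell gene Cd3e also differed most in mouse 279, by 3.23, 2.77 and 1.87. Mzb1 and Jchain differed most in mouse 278, by 1.96 and 0.96. The collagen genes Col1a1, Col1a2 and Col3a1, and Pdgfra, Kitl and Dcn, were below the filter. The part of stromal RNA in the member differences was not tested.

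Of the remaining lists, the LSK list was also higher and the megakaryocyte and macrophage lists were lower on the knockdown-labelled arrays. The LSK list, 8 of 8 above the filter, summed to 36435, 36216 and 36247 on the restored-labelled arrays and 40688, 40320 and 38044 on the knockdown-labelled arrays, without overlap. Its median difference was 0.15 as deposited, with Slamf1, a stem cell marker, at -0.50 ± 0.89. After centring the median was 0.05, with 5 genes higher and 3 lower. Megakaryocyte markers, 6 of 6 above the filter, summed to 8770, 11853 and 11022 against 8553, 8540 and 7859, and macrophage markers, 5 of 6, to 4403, 3702 and 3986 against 3083, 3056 and 2723, both without overlap. Their part in the member differences was not tested. Neutrophil markers, 8 of 8, summed to 23674, 16669 and 44456 on the restored-labelled arrays and 24165, 49275 and 28627 on the knockdown-labelled arrays. This sum rose steeply in mouse 279 and fell in mouse 281. Erythroid markers, 4 of 6, summed to 5470, 12114 and 8281 against 5394, 14364 and 9243. Endothelial markers, 4 of 8, summed to 2977, 4307 and 3505 against 3666, 3545 and 3319. T cell markers, 2 of 5, summed to 441, 449 and 874 against 578, 1076 and 673. The part of these cell types in the member differences was not tested either.

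**Figure D5:**
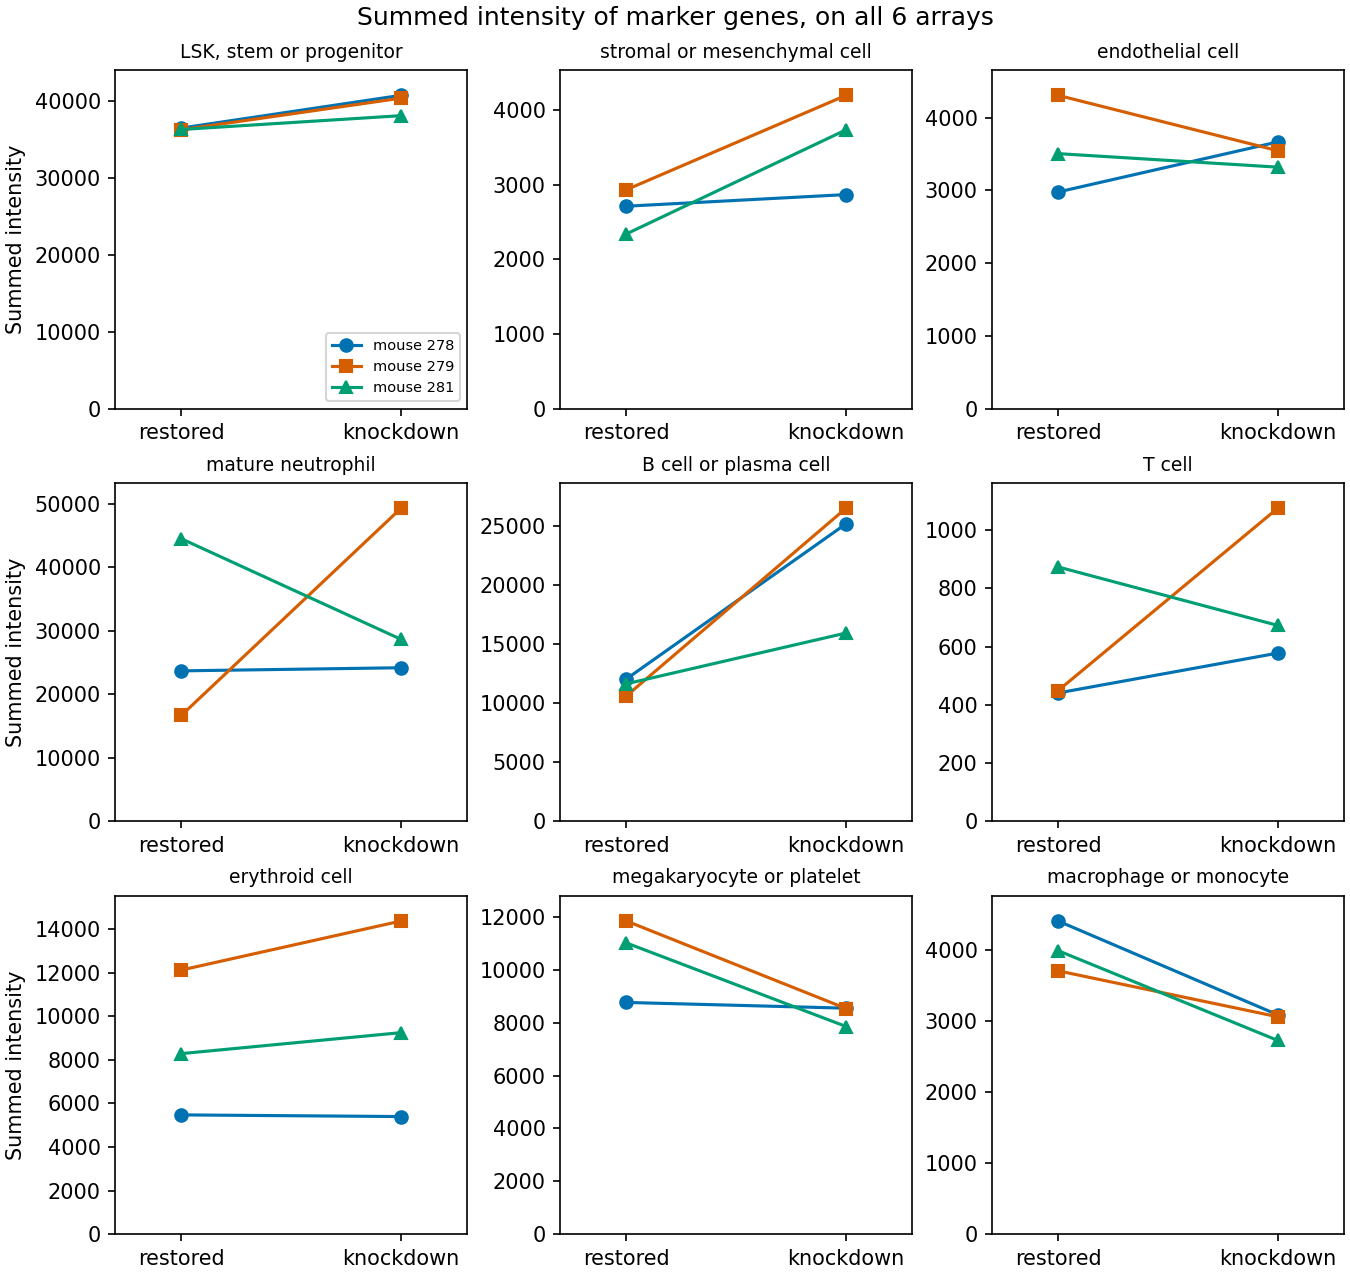
Summed intensity (linear axis from 0) of each cell type's marker list on the restored-labelled and knockdown-labelled array of each mouse, joined within the mouse. The B cell and plasma cell sums separate the groups, at most 12045 against at least 15938, and the stromal sums overlap.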

How the data were processed

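Affymetrix 430 2.0 arrays were hybridised with NuGEN-amplified RNA, per the labels' protocols. The deposited values are intensities on a linear scale, 1 per probe set and array; the steps by which the authors summarised, background-corrected and scaled them are not given in the sources used here. Precision is limited by having 6 arrays. Control probe sets (64 of 45101) were dropped; 34945 carry 1 gene symbol, 932 several and 9160 none. Symbols were checked in a RefSeq gene table (GRCm38.p6), which matched 34741 identifiers and changed 0 symbols.

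Values were analysed as log2(intensity + 16). Probe sets with a mean intensity of at least 149 (22519) were fitted in limma 3.58.1 (R 4.3.3) with the mouse as a block, since both populations of a pair came from 1 animal by the labels. The correlation of same-mouse deviations was 0.27, -0.08 and -0.21 for mice 278, 279 and 281. P-values were adjusted by Benjamini-Hochberg, and the fit was tested on simulated data. A gene is represented by its brightest probe set. Of the other imprinted genes up to 8, and of the methylation, growth factor and CIP/KIP lists up to 4 each, are named, those above the filter with the largest absolute differences; neighbours are the genes in order around a member, and Meg3, Mirg, Rian, Snrpn and single marker genes were chosen after their values were seen; the genes likest in pattern are the nearest 3. The members and lists were chosen with earlier results of these data known. Alternatives were the added value, filter, scaling, gene summary, block, array weights and each mouse left out. Summaries and plots used Python 3.11.15 with pandas 2.3.3 and matplotlib 3.10.9.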

Additional observations from a re-analysis of the deposited data

How the results depend on the processing

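The knockdown-labelled minus restored-labelled count at an adjusted p under 0.05 in limma was 0 in 15 of 17 alternatives. It was 1 with array weights, whose estimate did not reach its convergence tolerance, and 1 with 5 arrays and no mouse term; both calls were Igkv9-120, an immunoglobulin light chain segment (-4.41, adjusted p 0.0485, and -4.42, adjusted p 0.0439). The count for differences between mice was 1 with the trend and robust settings, 2610035D17Rik (adjusted p 0.0279), and 0 otherwise. With no replicate block the adjusted count was 0 and the unadjusted one 1295, against 1366 with the pairing by mouse. The unadjusted count was 2705 without a filter, 822 with the filter at the upper 30%, 630 with 1 probe set per gene, 6397 with array weights, 614 with each gene's probe sets averaged and 575 without mouse 278; the causes were not tested, beyond the fewer or more features tested and the fewer arrays.

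Over their alternatives the differences of Ndn (0.96 to 1.17), Cdkn1c (0.47 to 0.92), Airn (0.93 to 1.69), Igf2r (0.67 to 1.18) and Grb10 (0.26 to 0.50) kept their direction. Paternal minus maternal ran from -0.22 to 0.74 and Airn minus Igf2r from -0.14 to 0.72, so the sign of both depended on the setting. Centring the arrays on their medians moved the median of all probe sets from 0.020 to -0.086, and quantile normalization to -0.015. The share of probe sets with an unadjusted p under 0.05 that were higher went from 78.3% to 35.6% and 49.8%. Under either, 9 of the 11 member probe sets kept groups without overlap, against 2.31% and 6.75% of all probe sets, a count added after seeing the data. The 11 without overlap when 1 mouse is left out stand against 17.2% to 29.8% of all probe sets, since 2 arrays a group separate more readily. These counts too follow from how the genes were chosen and from the filter, and nothing is read from them. Of the 11 probe sets, 5 are of Ndn and read the same RNA. With 3 mice and probe sets near the background, small differences of dim members are not detectable.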
